A study of Mus musculus with 10 samples.

Results

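The Cyp3a cytochromes are the genes of the mouse Cyp3a subfamily of cytochrome P450 enzymes, and the 8 members described here, Cyp3a11, Cyp3a13, Cyp3a16, Cyp3a25, Cyp3a41a, Cyp3a41b, Cyp3a44 and Cyp3a59, were taken by symbol from the 41388 genes of the deposited tables. Liver RNA was sequenced from 10 mice aged 10 weeks to ask how the direction of a cross between the obese Berlin Fat Mouse Inbred line (BFMI, BFMI860-12/Hber) and the lean strain B6N (C57BL/6NCrl) affects gene expression. The F1 males came from both directions of the cross, 3 being sons of BFMI mothers (matBFMI, sired by B6N) and 3 sons of B6N mothers (patBFMI, sired by BFMI), each from a different mother. Both F1 groups were given a high fat diet from weaning onwards. Each inbred strain gave 1 female and 1 male, so an inbred value is 1 animal, and the sources differ on the diet of these 4 animals, naming a standard breeding diet in one place and a high fat diet in another.

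Cyp3a enzymes sit in the endoplasmic reticulum of hepatocytes, take electrons from the P450 reductase encoded by Por, and oxidise steroids, bile acids and a wide range of drugs. Their genes are classical targets of the pregnane X receptor (PXR, encoded by Nr1i2) and the constitutive androstane receptor (CAR, encoded by Nr1i3), which bind DNA with the retinoid X receptor. Cyp3a11 is the major inducible Cyp3a enzyme of adult mouse liver and is often set beside human CYP3A4. Cyp3a41a, Cyp3a41b and Cyp3a44 are known as female-predominant genes in mouse liver, where the secretion pattern of growth hormone sets many sex differences, Cyp3a16 is best known from fetal and young liver, and Cyp3a13 is also expressed in the intestine.

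Reads assigned to genes numbered 46988713 (B6N female) to 96023811 (BFMI male) per library. Among the F1 libraries patBFMI 1 stood apart at ordinary depth, with 32421 genes that had a count, against 22095 to 26694 in the other 5. The inbred libraries had 29942 (BFMI female) to 34572 (B6N female) such genes. The column headers placed the matBFMI libraries on lane 6, the patBFMI libraries on lane 5, the BFMI male on lane 1 and the other inbred animals on lane 4, so lane and cross cannot be told apart. Hepatocyte markers such as Alb summed to 58053 to 84478 CPM (TMM-scaled read counts relative to library size) in every library, with none of the 6 genes at 0, so the tissue label matched its markers. Fewer cells of a type and less RNA per cell cannot be told apart in bulk tissue.

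Of the 8 genes, 7 lay in a cluster of 677 kb on chromosome 5 (GRCm38). Cyp3a16 spans 145436309 to 145469723, Cyp3a41b 145558664 to 145584730, Cyp3a41a 145694049 to 145720136, Cyp3a44 145773983 to 145805874, Cyp3a11 145854426 to 145879964 and Cyp3a25 145977194 to 146009618, all on the minus strand. Cyp3a59, at 146079257 to 146113287, lies on the plus strand at the far end. Cyp3a13 stands alone, 7.51 Mb away at 137892932 to 137921619 on the minus strand. The annotation places a processed pseudogene on the same strand inside the Cyp3a13 locus and no other gene over any member.

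The sequences fell into 3 groups, which matter here because reads from near-identical genes can be assigned to the wrong one. The main transcripts of Cyp3a41a and Cyp3a41b matched at 99.7% over 2064 aligned bases, and 88.4% of all 100-base windows of the Cyp3a41a transcript occurred unaltered in Cyp3a41b. Counts of these 2 genes are therefore uncertain singly and are best read as a pair. Cyp3a44, Cyp3a11 and Cyp3a16 matched Cyp3a41a at 95.0%, 94.7% and 92.2%. Cyp3a25 and Cyp3a59 matched at 96.99% of bases, just under the 97% used to call a gene uncertain. Of the Cyp3a59 windows, 24.7% of those of 50 bases and 5.61% of those of 100 bases occurred in Cyp3a25. Cyp3a13 matched no other member above 77.8% and shared no window of 50 bases with any of them.

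**Figure D1:**
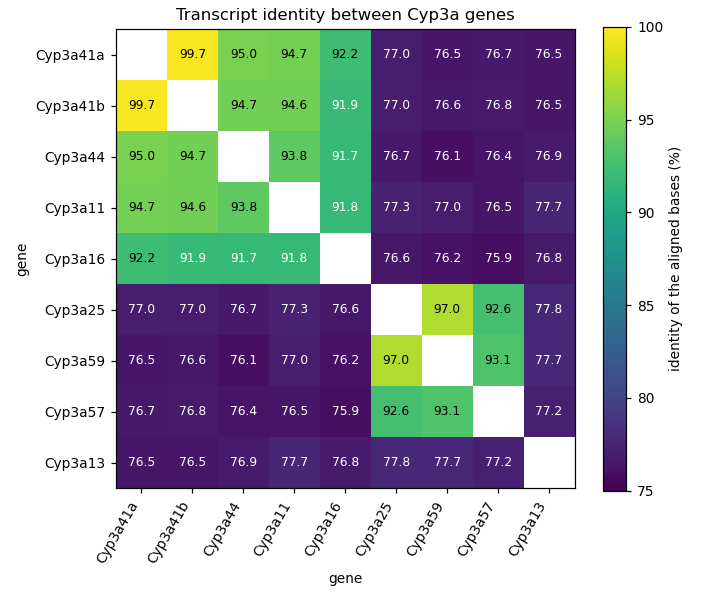
Identity (%) of the best BLAST alignment between the longest coding transcripts of the 9 protein-coding Cyp3a genes in the tables, in genes by genes. The block from Cyp3a41a to Cyp3a16 lies at 91.7% to 99.7%, the block of Cyp3a25, Cyp3a59 and Cyp3a57 at 92.6% to 96.99%, and Cyp3a13 at no more than 77.8% with any gene.

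The promoters showed the same grouping. The 250 bases before the RefSeq start (GRCm38.p6) are printed for Cyp3a41a and Cyp3a44, which were higher in females, and for Cyp3a25 and Cyp3a59, which were higher in BFMI. Capitals mark the letters AGGTCA and AGTTCA, core elements that nuclear receptors such as PXR and CAR can bind, and TATAAA, read on either strand. The windows are chr5:145720137-145720386 on the minus strand for Cyp3a41a, chr5:145805875-145806124 on the minus strand for Cyp3a44, chr5:146009619-146009868 on the minus strand for Cyp3a25 and chr5:146079008-146079257 on the plus strand for Cyp3a59.
Cyp3a41a: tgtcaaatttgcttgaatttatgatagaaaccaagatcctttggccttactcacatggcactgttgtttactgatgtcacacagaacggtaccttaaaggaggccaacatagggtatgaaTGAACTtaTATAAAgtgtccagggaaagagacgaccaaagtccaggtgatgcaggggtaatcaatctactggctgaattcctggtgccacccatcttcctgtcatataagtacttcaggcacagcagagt
Cyp3a44: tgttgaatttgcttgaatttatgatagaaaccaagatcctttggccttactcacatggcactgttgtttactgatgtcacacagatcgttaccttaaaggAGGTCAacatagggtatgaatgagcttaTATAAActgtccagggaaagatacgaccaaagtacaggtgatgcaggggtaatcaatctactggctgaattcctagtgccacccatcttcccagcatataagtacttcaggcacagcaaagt
Cyp3a25: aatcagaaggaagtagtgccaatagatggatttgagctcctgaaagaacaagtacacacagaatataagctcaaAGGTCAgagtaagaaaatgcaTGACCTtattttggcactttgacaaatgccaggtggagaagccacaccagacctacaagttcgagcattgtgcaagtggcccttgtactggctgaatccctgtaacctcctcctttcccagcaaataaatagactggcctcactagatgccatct
Cyp3a59: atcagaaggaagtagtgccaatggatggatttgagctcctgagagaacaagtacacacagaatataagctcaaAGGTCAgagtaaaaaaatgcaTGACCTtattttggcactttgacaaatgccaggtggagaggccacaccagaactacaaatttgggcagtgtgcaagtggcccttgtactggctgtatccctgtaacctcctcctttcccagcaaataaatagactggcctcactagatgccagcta

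The Cyp3a41a window differed from that of Cyp3a41b at 1 of 250 bases, and from that of Cyp3a44 at 12 of 245 aligned bases. TATAAA began 122 bases before the start in Cyp3a41a, Cyp3a41b and Cyp3a44, 126 before it in Cyp3a16 and 234 before it in Cyp3a11, and occurred in 12.97% of the 27025 mouse promoters searched. AGGTCA occurred once in Cyp3a44, 150 bases before the start, and once in Cyp3a11, 162 before it, and was not found in Cyp3a41a, Cyp3a41b or Cyp3a16. Cyp3a25 held AGGTCA at 176 and 155 bases before the start and Cyp3a59 at 177 and 156, with the inner copy of each pair reading on the opposite strand. AGGTCA was present in 13.8% and AGTTCA in 11.9% of all promoters, and AGTTCA occurred in Cyp3a41a and Cyp3a41b (130 bases before the start) and in Cyp3a11 (142 before it). TTCNNNGAA, the letters of a STAT5 site, occurred in 7.18% of promoters and in none of the 8 members. None of the 4 motifs lay in the Cyp3a13 window, and these matches are descriptions of the letters only.

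All 8 genes had at least 10 counts in every library and passed the filter on low counts in each comparison. Per transcript length, Cyp3a11 and Cyp3a25 were the main members. In the deposited RPKM (read counts relative to transcript length and library size, computed after quantile normalisation), Cyp3a11 averaged 180 ± 113 and Cyp3a25 142 ± 25.4 over the F1 males (SD, n = 6), which do not differ beyond their spread. Cyp3a13 followed at 44.3 ± 2.56 RPKM and Cyp3a59 at 10.8 ± 2.84 RPKM. Cyp3a44, Cyp3a41a, Cyp3a41b and Cyp3a16 lay at 1.88 ± 1.32, 1.43 ± 0.822, 1.35 ± 0.689 and 0.839 ± 0.669 RPKM, with overlapping ranges. At such low levels RPKM did not always follow the counts. Cyp3a41a had 47 counts and 1.31 RPKM in patBFMI 1, against 87 counts and 0.552 RPKM in patBFMI 3. The order of Cyp3a13 above Cyp3a59 and of both above the lowest 4 held in each F1 library.

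The summed RPKM of the 8 genes was 636, 406 and 333 in matBFMI 1, 2 and 3, and 280, 311 and 325 in patBFMI 1, 2 and 3. It reached 2636 in the BFMI female and 1232 in the BFMI male, against 685 in the B6N female and 560.0 in the B6N male. In reads, the family took 0.601% of all assigned counts in the BFMI female and 0.0603% to 0.153% in the F1 males. The BFMI female thus had the highest total and the F1 males, other than matBFMI 1, the lowest.

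Cyp3a11 was the largest component in both sexes of the inbred strains, and the share of Cyp3a41a and Cyp3a41b set the females apart. Cyp3a11 supplied 56.6% of the summed RPKM in the BFMI female and 56.2% in the B6N female, against 69.2% in the BFMI male and 61.2% in the B6N male. Cyp3a41a and Cyp3a41b supplied 15.4% and 12.9% in the BFMI female and 6.15% and 5.26% in the B6N female, and none of the 8 male libraries exceeded 0.566% for either. Cyp3a44 supplied 7.03% in the B6N female and 1.29% in the BFMI female. In the F1 males Cyp3a11 supplied 30.7% to 63.6% and Cyp3a25 25.1% to 46.3%, and Cyp3a25 was the larger in matBFMI 2, matBFMI 3 and patBFMI 1.

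**Figure D2:**
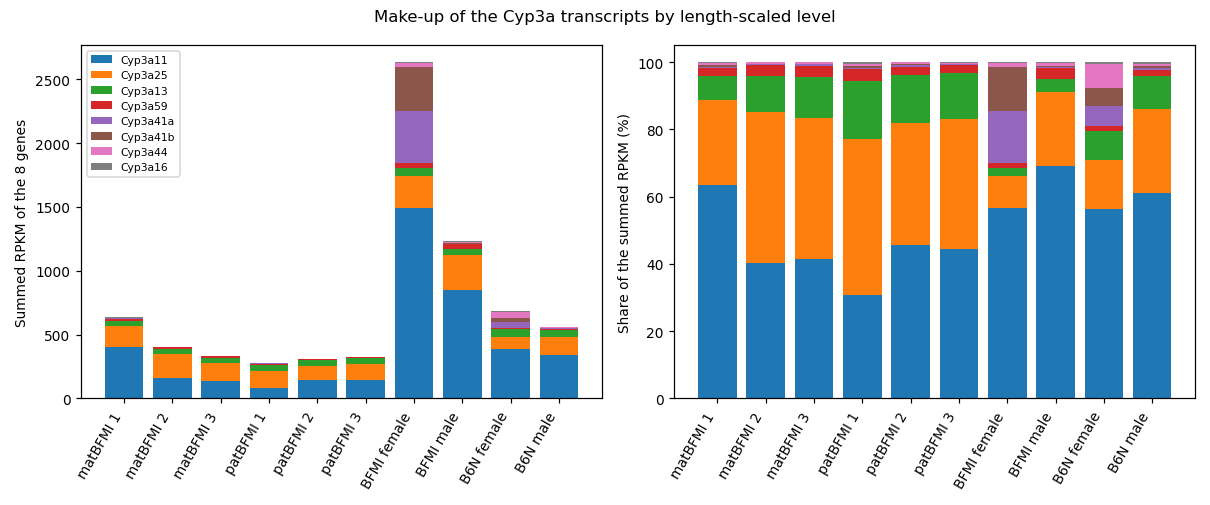
Summed RPKM (left) and share of that sum in percent (right) of the 8 Cyp3a genes in each of the 10 liver libraries, 1 bar per library and 1 colour per gene. The BFMI female holds the highest sum, 2636 RPKM, and the 2 females alone hold a visible share of Cyp3a41a and Cyp3a41b, 15.4% and 12.9% in BFMI and 6.15% and 5.26% in B6N.

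The first comparison asked whether the direction of the cross altered these genes in F1 males. Cyp3a59, a sequence relative of Cyp3a25, had 29.7, 27.2 and 25.5 CPM in matBFMI 1, 2 and 3, against 17.8, 17.1 and 17.4 CPM in patBFMI 1, 2 and 3. The lowest matBFMI value exceeded the highest patBFMI value. Its level was 1.56-fold higher in matBFMI (log2 fold change 0.64 ± 0.09 SE), with an edgeR adjusted p of 0.0414 over 16797 genes. The call was lost without matBFMI 1, 2 or 3 or without patBFMI 1 or 3 (edgeR adjusted p 0.0921 to 0.149) and held without patBFMI 2 (0.0498), while the fitted log2 difference stayed at 0.59 to 0.70.

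Cyp3a25 had 350, 385 and 314 CPM in the matBFMI libraries, against 268, 260 and 262 CPM in the patBFMI libraries. These groups did not overlap either, and the patBFMI values lay close together (SD 4.18 CPM). The fitted difference was 1.32-fold with an unadjusted p of 0.00502, which did not pass adjustment (edgeR adjusted p 0.258). Cyp3a25 and Cyp3a59 were the 2 members of 8 whose libraries separated in full, and 8.25% of all genes tested separated in the same direction.

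Cyp3a11 had 1024, 391 and 340.5 CPM in matBFMI 1, 2 and 3, against 198, 369 and 333 CPM in patBFMI 1, 2 and 3. The groups overlapped, with matBFMI 1 the highest and patBFMI 1 the lowest. The mean was 585 ± 381 CPM in matBFMI and 300 ± 89.9 CPM in patBFMI (SD, n = 3 each), and the fitted log2 difference of 0.96 did not pass (edgeR adjusted p 0.481, unadjusted 0.0421). Without matBFMI 1 the log2 difference was 0.28. The library matBFMI 1 was also the highest F1 library for Cyp3a16 (2.99 CPM, with 0.689 to 1.15 in the other 5), Cyp3a44 (8.39 CPM, with 1.93 to 3.76), Cyp3a41a (5.51 CPM, with 0.925 to 5.16) and Cyp3a41b (4.92 CPM, with 1.18 to 4.12).

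None of these 4 low genes passed the test, with fitted log2 differences of 0.94 for Cyp3a16, 0.87 for Cyp3a44, 0.62 for Cyp3a41a and 0.62 for Cyp3a41b (edgeR adjusted p 0.499 to 0.758). Cyp3a13 was level, at 132 ± 8.3 CPM in matBFMI and 136 ± 7.02 CPM in patBFMI (SD, n = 3 each), with a log2 difference of -0.06 ± 0.10. In all 7 of 8 members had a positive difference, 1 was called higher and none lower, and 0.0953% of all genes tested were called higher and 0.0476% lower. That is 16 and 8 genes, and scaling by library size alone gave 45 and 11. The members' median log2 difference was 0.63, beside -0.01 over all genes. The near-identical Cyp3a41a and Cyp3a41b are counted singly in these tallies.

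**Figure D3:**
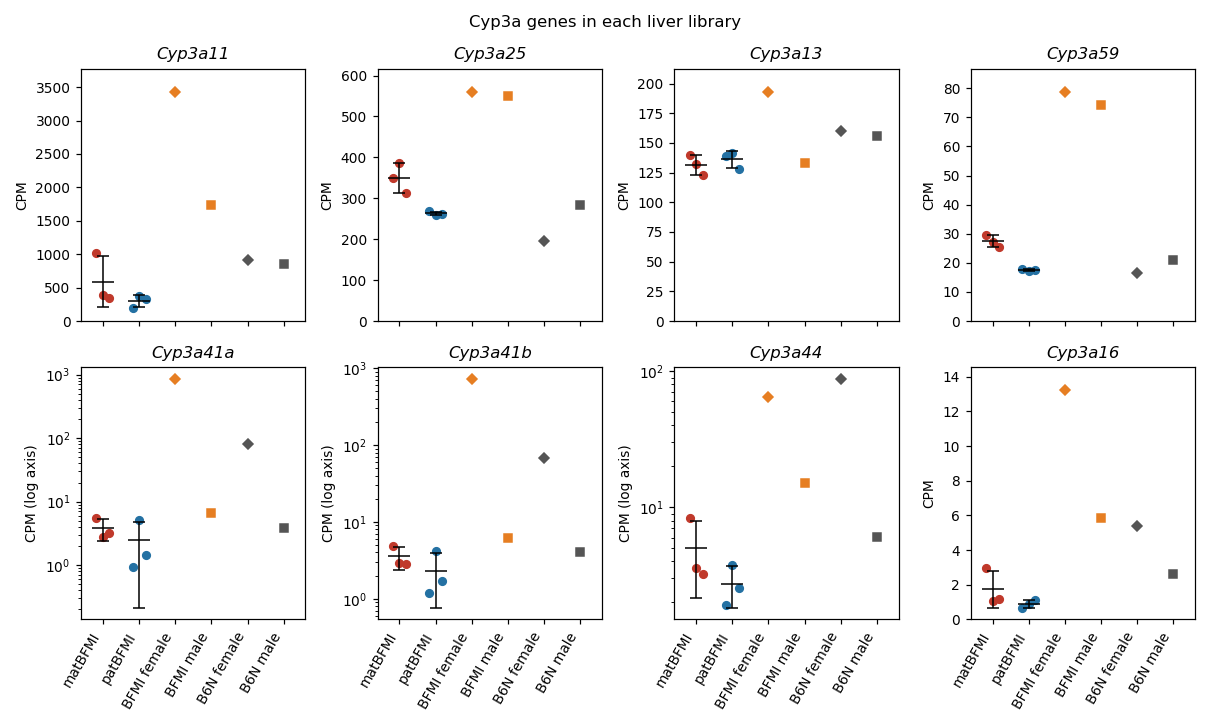
CPM (TMM-scaled counts relative to library size) of each Cyp3a gene in the matBFMI and patBFMI males (circles, with black lines for the mean and SD of 3) and in the single inbred females (diamonds) and males (squares). The axes of Cyp3a41a, Cyp3a41b and Cyp3a44 are logarithmic. For Cyp3a59 the 3 matBFMI points lie at 25.5 to 29.7 CPM, above the patBFMI points at 17.1 to 17.8 CPM, and the BFMI points lie at 74.3 and 78.9 CPM.

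The comparison of the inbred strains asked which genes differed between the obese and the lean parent. It was fitted over all 10 libraries with sex as a term beside strain or cross, so that its spread comes mainly from the F1 males. Cyp3a59 had 78.9 and 74.3 CPM in the BFMI female and male, against 16.4 and 20.8 CPM in the B6N female and male. Both BFMI animals were thus 4.81-fold (females) and 3.57-fold (males) above their B6N counterparts. The fitted difference was 4.14-fold (log2 2.05 ± 0.13), with an edgeR adjusted p of 1.03e-05.

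Cyp3a25 had 561 and 549 CPM in the BFMI female and male, against 195 and 285 CPM in the B6N female and male. It was 2.36-fold higher in BFMI (log2 1.24 ± 0.17, edgeR adjusted p 0.00148). Both calls held under all 19 alternatives, which included leaving out each library in turn. Without an inbred animal, the pair of the other sex alone gave the strain difference, a single animal per strain. These 2 of 8 members were called higher and none lower, while 3.61% of all 19974 genes tested were called higher and 3.05% lower.

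Cyp3a11 had 3434 and 1734 CPM in the BFMI female and male, against 909 and 853 CPM in the B6N female and male. The fitted difference of 2.77-fold did not pass (edgeR adjusted p 0.128). Leaving out matBFMI 1, which widens the F1 spread of this gene, lowered that value to 0.0176 and raised the count of members called to 4, the others being Cyp3a16, Cyp3a25 and Cyp3a59. In that fit 1126 of all 19953 genes tested were called in either direction. Cyp3a16 had 13.2 and 5.85 CPM in the BFMI female and male, against 5.41 and 2.63 CPM in the B6N female and male (2.34-fold, edgeR adjusted p 0.104).

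For Cyp3a41a and Cyp3a41b the ratio of BFMI to B6N was higher in the females than in the males, each ratio resting on 1 animal per strain. Cyp3a41a had 870 CPM in the BFMI female, against 79.4 CPM in the B6N female, a ratio of 10.9, and 6.70 CPM in the BFMI male, against 3.86 CPM in the B6N male, a ratio of 1.73. Cyp3a41b had 735 CPM in the BFMI female, against 68.2 CPM in the B6N female, and 6.15 CPM in the BFMI male, against 4.03 CPM in the B6N male. Fitted over both sexes, these gave log2 differences of 2.20 and 2.11 that did not pass (edgeR adjusted p 0.154 and 0.117). Without the BFMI male or the B6N male, the pair of females alone gave the strain difference. The log2 difference of Cyp3a41b was then 3.46 or 3.43. Cyp3a44 ran the other way in females, with 64.7 CPM in the BFMI female, against 88.5 CPM in the B6N female, and 15.1 CPM in the BFMI male, against 6.10 CPM in the B6N male. Its fitted log2 difference of 0.39 did not pass (edgeR adjusted p 0.798). It turned negative without the BFMI male (-0.42) or the B6N male (-0.45), where both values again rest on the pair of females alone. Cyp3a13 had 193 and 133 CPM in the BFMI female and male, against 160 and 156 CPM in the B6N female and male, with no difference beyond its error (log2 0.02 ± 0.14).

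Markers of other cells also moved with strain. Of 5 erythroid markers, which encode the globins and a heme enzyme of red cells, 4 were higher in BFMI, Hba-a2 by log2 1.69 and Hba-a1 by 1.72 (edgeR adjusted p 3.73e-05 and 4.07e-05), followed by Hbb-bs (1.45, 0.000281). Their sum was 733 and 918 CPM in the BFMI female and male, against 225 and 394 CPM in the B6N female and male, and 522 to 601 CPM in the F1 males. Kupffer cell and macrophage markers were lower in 3 of 6, with sums of 258 and 196 CPM in the BFMI female and male, against 360.0 and 339 CPM in the B6N female and male. Of the other marker lists, the endothelial marker Lyve1 (log2 -1.13, edgeR adjusted p 0.0286) and the pericentral hepatocyte marker Slc1a2 (-0.71, 0.0382) were lower in BFMI, and the periportal hepatocyte marker Cyp2f2 was higher (0.80, 0.0221). These were 1 of 5, 1 of 7 and 1 of 6 markers of their lists, and 0 of 6 hepatocyte, 0 of 5 stellate cell and 0 of 5 cholangiocyte markers were called by edgeR, with 2, 1 and 2 at an unadjusted p under 0.05. Summed pericentral markers lay at 5288 and 4924 CPM in the BFMI female and male, against 6287 and 5597 CPM in the B6N female and male. Summed periportal markers lay at 2875 and 2607 CPM in the BFMI female and male, against 4372 and 3327 CPM in the B6N female and male. No marker was at 0, and 3.61% of all genes tested were called higher in BFMI and 3.05% lower. The part of these shifts in the strain differences was not tested.

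The sex comparison rested on 2 females, 1 of each strain. Cyp3a41a had 870 CPM in the BFMI female, against 6.70 CPM in the BFMI male, a ratio of 130, and 79.4 CPM in the B6N female, against 3.86 CPM in the B6N male, a ratio of 20.6. Cyp3a41b gave 735 CPM in the BFMI female, against 6.15 CPM in the BFMI male, and 68.2 CPM in the B6N female, against 4.03 CPM in the B6N male. Both were far above any male, F1 males included, whose values lay at 0.925 to 5.51 and 1.18 to 4.92 CPM.

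The fitted difference was 53.4-fold for Cyp3a41a (log2 5.74 ± 0.88, edgeR adjusted p 0.023) and 46.5-fold for Cyp3a41b (log2 5.54 ± 0.76, edgeR adjusted p 0.0123). Summed as 1 gene, as their sequences advise, they gave a log2 difference of 5.61 (edgeR adjusted p 0.0231). The Cyp3a41a call was lost without any 1 of the 4 inbred animals or matBFMI 3 (edgeR adjusted p 0.0575 to 0.116), and that of Cyp3a41b only without the BFMI male (0.051). The smallest fitted log2 differences, 4.34 and 4.05, came without the BFMI male, where the B6N pair alone gave the sex difference.

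Cyp3a44 had 64.7 CPM in the BFMI female, against 15.1 CPM in the BFMI male, and 88.5 CPM in the B6N female, against 6.10 CPM in the B6N male. Its fitted difference was 7.73-fold (log2 2.95 ± 0.51, edgeR adjusted p 0.0393). The call was lost without the B6N female, the B6N male, patBFMI 3, matBFMI 2 or matBFMI 3 (edgeR adjusted p 0.0516 to 0.334) and in the RPKM values. These 3 of 8 members were called higher and none lower, beside 0.31% of all genes called higher and 0.245% lower. The tally counts Cyp3a41a and Cyp3a41b singly, although they are best read as a pair.

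The remaining members did not pass in the sex comparison. Cyp3a16 had 13.2 CPM in the BFMI female, against 5.85 CPM in the BFMI male, and 5.41 CPM in the B6N female, against 2.63 CPM in the B6N male (log2 1.11 ± 0.39, edgeR adjusted p 0.402). Cyp3a11 was 1.98 times as high in the female as in the male in BFMI and 1.07 times in B6N (edgeR adjusted p 0.961). Cyp3a25 and Cyp3a59 had fitted log2 differences of -0.26 ± 0.16 and -0.12 ± 0.13, and Cyp3a13 of 0.29 ± 0.14. Of the cell type markers, 1 of 5 erythroid markers was called lower in females, beside 0.245% of all genes. Of these 5 markers 0 had a positive difference. No other cell type marker was called between sexes, and the part of this shift was not tested.

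Whether the sex difference itself differed between BFMI and B6N was tested in a fit with 1 mean per group, in which the spread comes from the F1 males alone. The sex difference of Cyp3a41b was larger in BFMI than in B6N by log2 2.82 ± 0.93 (unadjusted p 0.0143), that of Cyp3a41a by 2.66 ± 1.24, and that of Cyp3a44 was smaller by 1.76 ± 0.82 (log2 -1.76). None passed adjustment (edgeR adjusted p 0.492, 0.653 and 0.653). No member was called in either direction by edgeR with the filter on low counts or by DESeq2, 1 of 8 had an unadjusted p under 0.05, and 0.015% of all genes were called higher and 0.015% lower. Those are 3 genes in each direction, against 4 and 6 when scaled by library size alone, where the median of all genes moved to -0.21.

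**Figure D4:**
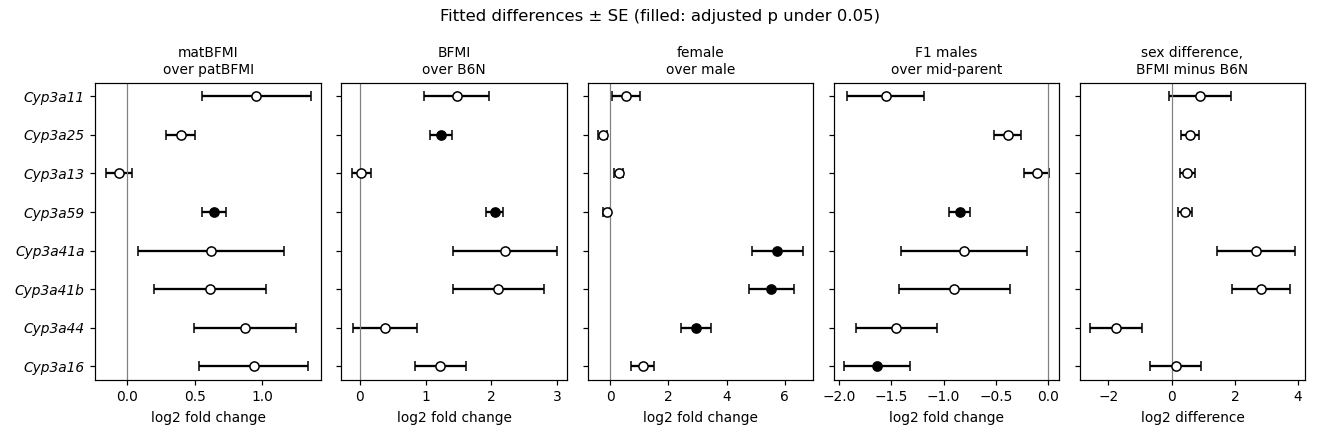
Fitted differences of the 8 Cyp3a genes in the 5 comparisons, on the log2 scale, 1 panel per comparison, with bars for the standard error and filled points where the edgeR adjusted p is under 0.05. Filled points are Cyp3a59 in the F1 comparison, Cyp3a25 and Cyp3a59 between strains, Cyp3a41a, Cyp3a41b and Cyp3a44 between sexes, and Cyp3a16 and Cyp3a59 against the mid-parent.

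The F1 males were then set against the mean of their parents, that is the mean of both crosses minus the mean of BFMI and B6N in the fit of all 10 libraries. All 8 differences were negative, with a median of -0.87, beside 0.01 over all genes, counting the near-identical Cyp3a41a and Cyp3a41b singly. Cyp3a59 fell by 0.85 on the log2 scale (SE 0.10, edgeR adjusted p 0.0056), its F1 values of 17.1 to 29.7 CPM lying on both sides of the B6N male (20.8 CPM) and far below the BFMI male (74.3 CPM). Only leaving out the B6N male ended this call, with the log2 difference at -0.63. In that fit the B6N male level came from the B6N female and the sex difference of BFMI.

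Cyp3a16 fell by 1.64 (SE 0.32, edgeR adjusted p 0.0309). It had 2.99, 1.09 and 1.15 CPM in matBFMI and 0.689, 0.896 and 1.11 CPM in patBFMI, against 5.85 CPM in the BFMI male and 2.63 CPM in the B6N male, so that 5 of the 6 F1 males lay below both inbred males. The call was lost without the BFMI male, the B6N male, patBFMI 2, matBFMI 2 or matBFMI 3 (edgeR adjusted p 0.0523 to 0.365). Cyp3a11 and Cyp3a44 showed the same arrangement, 5 of 6 F1 males below both inbred males, and had differences of -1.55 and -1.46 that did not pass (edgeR adjusted p 0.0634 and 0.092). Cyp3a11 also passed without patBFMI 1 (0.0412). Without matBFMI 1 both passed (0.00811 and 0.0296) and the count of members called lower was 4, while without the B6N male it was 0.

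In the main fit 2 of 8 members, Cyp3a16 and Cyp3a59, were called lower and none higher, with 0.916% of all genes called lower and 1.14% higher. Without matBFMI 1, 259 of all 19953 genes tested were called in either direction. The F1 males were on lanes 5 and 6 and the inbred animals on lanes 1 and 4, and whether their diets differed is uncertain. The inbred libraries also had more genes with a count (29942 to 34572) than the F1 libraries other than patBFMI 1 (22095 to 26694). F1 state, lane, diet and this difference cannot be told apart here. In RPKM the median of all genes moved to -0.33 (pseudocount 1) and -0.54 (pseudocount 0.1). Kupffer cell markers summed to 169 to 219 CPM in the F1 males, against 196 to 360.0 CPM in the inbred animals, and 3 of 6 were called lower, Marco (log2 -3.39, edgeR adjusted p 0.00685) and Csf1r (-0.45, 0.0223) among them. In the same comparison 1 of 6 hepatocyte and 1 of 7 pericentral markers were called higher, and 1 of 5 cholangiocyte markers lower. No endothelial, stellate cell, erythroid or periportal marker was called. The part of these shifts in the differences was not tested.

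Low members followed their sequence relatives across the male libraries. Cyp3a44 had 0.715 to 1.02 counts per 100 counts of Cyp3a11 in the 8 males (median 0.89), against 1.88 in the BFMI female and 9.74 in the B6N female. Cyp3a16 had 0.243 to 0.348 counts per 100 of Cyp3a11 in the males, with 0.386 in the BFMI female and 0.595 in the B6N female. Cyp3a11 itself spanned 198 to 1734 CPM in these males, a far wider span than that of either ratio. Of the 50-base windows of the Cyp3a44 and Cyp3a16 transcripts, 6.95% and 6.13% occurred unaltered in Cyp3a11, and of their 100-base windows 0.268% and 0.123%. Whether reads of Cyp3a11 were counted for these genes in males was not tested.

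Cyp3a41a varied more against Cyp3a11, from 0.386 to 1.4 counts per 100 in the males, and reached 25.3 in the BFMI female and 8.74 in the B6N female. Cyp3a41b kept 79.8 to 128 counts per 100 of Cyp3a41a in the males, 84.6 in the BFMI female and 85.8 in the B6N female. Cyp3a59 had 14.1 and 13.5 counts per 100 of Cyp3a25 in the BFMI female and male, against 8.44 and 7.32 in the B6N female and male. In the F1 males this ratio was 8.5, 7.05 and 8.12 in matBFMI and 6.64, 6.58 and 6.65 in patBFMI. The ratio was thus set apart in BFMI and did not overlap between the crosses, and how often ratios of other gene pairs separate was not tested. Cyp3a57, the remaining protein-coding Cyp3a gene of the tables, lies on the plus strand beside the cluster, had 0.79 to 2.99 CPM over the 10 libraries and 0.304 to 0.674 counts per 100 of Cyp3a25 in the males. Its matBFMI values (1.68 to 2.36 CPM) all lay above its patBFMI values (0.79 to 1.59 CPM), as in 8.25% of all genes tested.

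**Figure D5:**
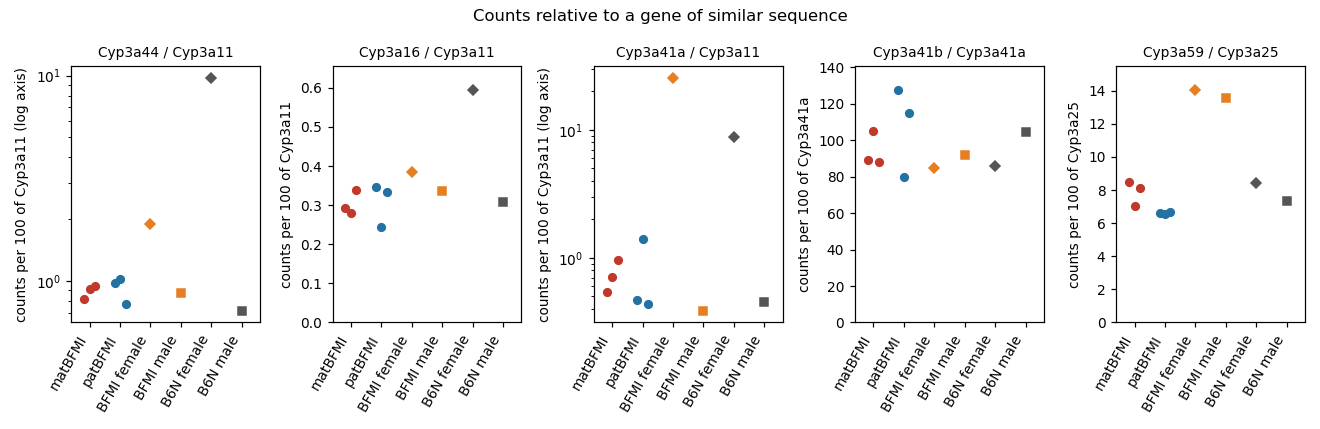
Counts of a Cyp3a gene per 100 counts of the relative named on each axis, in the matBFMI and patBFMI males (circles) and the single inbred females (diamonds) and males (squares). The axes of Cyp3a44 and Cyp3a41a over Cyp3a11 are logarithmic. Cyp3a44 lies at 0.715 to 1.02 in all 8 males and at 1.88 and 9.74 in the BFMI and B6N females, and Cyp3a59 over Cyp3a25 lies at 14.1 and 13.5 in BFMI and at 6.58 to 8.5 elsewhere.

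No receptor of the pathway passed the test in any comparison. Nr1i2 (PXR) had 51.8 ± 5.26 CPM in matBFMI and 47.2 ± 2.95 CPM in patBFMI (SD, n = 3 each), with a log2 difference of 0.12 ± 0.10 (edgeR adjusted p 0.759). Nr1i3 (CAR) had 65.1 and 65.9 CPM in the BFMI female and male, against 50.5 and 35.9 CPM in the B6N female and male (log2 0.62 ± 0.23, unadjusted p 0.0219, edgeR adjusted p 0.167). Of the 15 receptors and partners, 0 were called by edgeR in each of the 5 comparisons, with 1 to 5 at an unadjusted p under 0.05 in each.

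Por, the electron donor of all microsomal P450 enzymes, was lower in BFMI, where Cyp3a25 and Cyp3a59 were higher. It had 78.1 and 45.4 CPM in the BFMI female and male, against 188 and 93.9 CPM in the B6N female and male (log2 -1.16 ± 0.26, edgeR adjusted p 0.0244). In the F1 males it had 166, 132 and 215 CPM in matBFMI, against 122, 91.3 and 72.8 CPM in patBFMI, without overlap (log2 0.82 ± 0.22, unadjusted p 0.00529, edgeR adjusted p 0.259). Of all genes tested, 8.25% separated in this direction. Of the 9 electron donor and heme genes, Por and Alas1, the rate-limiting enzyme of heme synthesis, were lower in BFMI, none was higher, and none was called in the other 4 comparisons. Between the crosses Alas1 had 199, 340 and 527 CPM in matBFMI, against 93.6, 121 and 80.8 CPM in patBFMI, also without overlap. That difference, higher in matBFMI, did not pass (log2 1.84 ± 0.31, edgeR unadjusted p 0.000254, adjusted p 0.0848).

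Of the PXR and CAR target genes outside the Cyp3a family, 6 of 30 tested were higher in BFMI and 2 lower, with a median log2 difference of 0.46, beside -0.04 over all genes. Of all genes tested, 3.61% were called higher in BFMI and 3.05% lower, and 0.31% higher in females and 0.245% lower. Between females and males 4 of 30 were higher, among them Slco1a4, an organic anion transporter (log2 1.98, edgeR adjusted p 0.000664), and Papss2, which makes the sulfate donor (1.33, 0.00188), and none was lower. None of 27 was called between the crosses, where 22 had a positive difference and the median was 0.23. Against the mid-parent Papss2 alone was called, and was higher in the F1 males (log2 0.84, edgeR adjusted p 0.00969).

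Of 29 female-predominant liver genes, 13 were higher in females and none lower, with Sult3a1, a sulfotransferase, at log2 7.86 (edgeR adjusted p 0.000692), Abcd2, a peroxisomal transporter, at 1.77 (0.000803) and Cyp17a1, a steroid hydroxylase, at 2.50 (0.00188). Of 29 male-predominant genes, 9 were lower in females, Cyp2d9, a steroid hydroxylase, by the smallest p (log2 -3.22, edgeR adjusted p 0.00084), and 1, Cyp2c70, a bile acid hydroxylase, was higher. These counts stand beside 0.31% of all genes called higher in females and 0.245% lower. Against the mid-parent, 1 of 29 female-predominant genes, Cyp17a1, was called higher in the F1 males (log2 1.99, edgeR adjusted p 0.00466) and 1 lower. Of these 29 genes 10 had a positive difference. Of the 29 male-predominant genes, 1 was called higher and none lower, beside 1.14% of all genes called higher and 0.916% lower.

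Between strains these lists split, with 5 of 29 female-predominant genes higher and 4 lower in BFMI, and 1 of 29 male-predominant genes higher and 5 lower. Over all genes 3.61% were called higher in BFMI and 3.05% lower. Cyp17a1 was lower in BFMI (log2 -4.91, edgeR adjusted p 3.47e-06) and Cyp2a22, a P450 enzyme, higher (1.58, 0.000202), while C4a, a complement gene, was lower (-1.79, 3.09e-05). Between the crosses, Abcd2 (log2 1.12, edgeR adjusted p 0.0209) and Acot3, an acyl-CoA thioesterase (4.53, 0.0414), were higher in matBFMI among 25 female-predominant genes, and Serpina1e, a protease inhibitor, was lower (-1.15, 0.0452) among 29 male-predominant genes. In this comparison 17 of the 25 female-predominant genes had a positive difference (median log2 0.35). Of the 29 male-predominant genes 3 did (median -0.37), with 15 lower at an unadjusted p under 0.05. The median over all genes was -0.01, and 1654 of 16797 had an unadjusted p under 0.05 in either direction. The lists were chosen with earlier results of these data known. They hold genes that the paper reported as higher in matBFMI males, Abcd2 and Acot3 among them, and others it reported as lower. The tallies are therefore a description and not a test.

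The genes most like the members over the 10 libraries are given as a description, since the libraries share strain, sex and lane. By Pearson's r of log2(CPM + 1) among 13153 genes of at least 1 CPM on average, Cyp3a11 was closest to Spc25 (0.942), Cp (0.922) and Gimap9 (0.906) outside the family, and closer still to Cyp3a16 (0.966). Cyp3a25 was closest to Pisd (0.969), Tdg-ps (0.964) and 1700052K11Rik (0.963), with Cyp3a59 at 0.953. Cyp3a13 was closest to Ttpa (0.924), Erap1 (0.915) and Aga (0.893). The sum of Cyp3a41a, Cyp3a41b and Cyp3a44 was closest to A1bg (0.974), a female-predominant liver gene that had 403 and 15.9 CPM in the BFMI female and male, against 66.3 and 0.832 CPM in the B6N female and male, then to Eif2s3x (0.948) and Slc22a29 (0.937).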

How the data were processed

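Liver RNA of 10 mice was measured by paired-end RNA sequencing. The count table deposited by the authors holds unnormalised reads per Ensembl gene, counted in union mode on GRCm38 after trimming, alignment and duplicate removal. The authors also deposited RPKM values, computed after quantile normalisation. Per the submitters' processing notes reads went through Picard 1.99, Bowtie2 2.2.6, TopHat2 2.10 and Trimmomatic 0.32 (given here in no order), while the methods name another aligner, and how reads that match several genes were treated is not given in the sources used here. Among the columns, 3 have no sample record and were not used.

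Symbols were matched by identifier to GENCODE M21 (40340 of 41388 genes). Counts were tested with edgeR 4.0.16 (quasi-likelihood, TMM, R 4.3.3) on genes reaching 10 counts in 3 or more F1 libraries, or, for fits of all 10 libraries, in 2 or more, and p was adjusted by Benjamini-Hochberg over all genes tested (threshold 0.05). CPM are TMM-scaled over the 10 libraries. Depth was the sum of assigned reads, and precision is the SD over animals or the SE of the fit. The labels number the F1 males, and the numbers were not used to pair them in the main fit. Alternatives covered other scalings, DESeq2 1.42.0, other filters, RPKM with pseudocounts of 1 and 0.1 (limma 3.58.1), male libraries only, both Cyp3a41 genes summed and leaving out each library. The scripts were tested on simulated data. Transcripts and promoters were compared with BLAST 2.17.0, and promoter sequences are from RefSeq (GRCm38.p6), which held all 8 members. Plots used matplotlib 3.10.9, and tables numpy 2.4.6 with pandas 2.3.3 under Python 3.11.15.

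The members and gene lists were chosen with earlier results of these data known. Of 170 list genes 3 were not matched. Named genes are the 8 members, Cyp3a57, Nr1i2, Nr1i3, Por, up to 6 further list genes per comparison with the smallest adjusted p past 0.05, and the 3 genes most like the leading members. Any other gene named (Alas1, Cyp2c70, A1bg, Lyve1, Slc1a2, Cyp2f2) was picked with its values in view. A list result between the crosses is not reported here.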

Additional observations from a re-analysis of the deposited data

Results flagged for a closer look

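The test of the difference between strains in the sex difference called 3 genes of the lists and no Cyp3a gene. Cyp2b13, a female-predominant P450 gene, had a sex difference smaller in BFMI than in B6N by log2 -5.64 (edgeR adjusted p 0.00777), with 28.8 CPM in the BFMI female, against 5.92 CPM in the BFMI male, and 41.02 CPM in the B6N female, against 0.166 CPM in the B6N male. Cyp4a12a, a male-predominant fatty acid hydroxylase, differed by log2 5.54 (0.00777), with 116 CPM in the BFMI female, against 309 CPM in the BFMI male, and 1.4 CPM in the B6N female, against 174 CPM in the B6N male. Cyp2c69 differed by log2 -4.32 (0.0372), with 37.1 CPM in the BFMI female, against 32.3 CPM in the BFMI male, and 767 CPM in the B6N female, against 33.6 CPM in the B6N male. Each group is 1 animal, and for Cyp3a41a and Cyp3a41b the fitted difference ran the other way from that of Cyp2b13 and Cyp2c69. Over all genes this test called 6, and it called 0 without matBFMI 3 and 0 in the RPKM values with pseudocount 1 or 0.1, so that none of these 3 calls held there.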

How the results depend on the processing

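Of 694 alternative values of the members' fits, 618 kept direction and side of the threshold, 31 lost a call, 27 gained one and 18 turned sign. Without a filter on low counts, 6 members were higher in matBFMI, 6 higher in BFMI and 6 lower than the mid-parent, and the sex difference was larger in BFMI for 2 and smaller for 1. Beside these, 421 of all 34706 genes tested were called higher in matBFMI. Of 38778 genes in the other fits, 1215 were called higher in BFMI and 798 lower than the mid-parent. The sex difference was called larger in BFMI for 244 and smaller for 155. Between crosses the count of 1 higher was 2 by DESeq2 and 0 with a filter of 50 counts, in RPKM with pseudocount 1 or 0.1, and in all 10 libraries. RPKM gave 1 member higher in females (pseudocount 0.1) and 1 below the mid-parent (both pseudocounts). Leaving out 1 library gave 0 to 1 higher in matBFMI, 2 to 4 higher in BFMI, 1 to 3 higher in females and 0 to 4 below the mid-parent. Signs turned for Cyp3a13 between crosses (0.0195 by library size only), for Cyp3a13 between strains (-0.036 and -0.0368 in RPKM with pseudocounts 1 and 0.1, -0.23 in males only, and -0.23 to 0.30 over libraries left out), for Cyp3a16 in the difference of sex differences (-0.0162 by library size, -0.0861 and -0.18 in RPKM) and, over libraries left out, for Cyp3a44 between strains (-0.45 to 1.31), Cyp3a25 (-0.57 to 0.0355) and Cyp3a59 (-0.37 to 0.0906) between sexes, and Cyp3a13 (-0.38 to 0.14), Cyp3a41a (-2.07 to 0.61) and Cyp3a41b (-2.24 to 0.61) against the mid-parent. Causes were not tested. The deviations of same-numbered F1 males from their group means correlated at 0.30, -0.06 and 0.10, and those of differently numbered males at -0.30 to 0.23. A replicate block left 1 member called between crosses and moved the genes called higher to 89 and lower to 86, against 16 and 8. Over all genes, DESeq2 called 176 higher and 129 lower between crosses, 227 and 157 between sexes (62 and 49 by edgeR), 555 and 316 against the mid-parent (227 and 183) and 81 and 47 in the difference of sex differences (3 and 3). Without a filter these counts were 421 and 275, 246 and 336, 612 and 798, and 244 and 155, and 1215 genes were higher between strains (722 with the filter). RPKM with pseudocount 1 gave 2 and 0 between crosses, 191 and 165 between strains (722 and 610), 21 and 24 between sexes, and with pseudocount 0.1 15 and 16 against the mid-parent. Leaving out 1 library gave 6 to 39 and 1 to 24 between crosses, 285 to 849 and 251 to 674 between strains, 21 to 97 and 17 to 80 between sexes, 6 to 339 and 7 to 598 against the mid-parent and 0 to 10 and 0 to 12 in the difference of sex differences, which had 0 and 0 in RPKM with either pseudocount. Where a library is left out of an inbred pair, the lone animal is assumed to vary like the F1 males. The strain difference then comes from the pair of the other sex alone, and the sex difference from the other strain alone. Against the mid-parent, a missing male is replaced by the female of its strain and the sex difference of the other strain. Calls and signs in these fits therefore rest on single animals. With 1 animal per inbred group, animal, lane and diet limit every strain and sex difference, and counts of near-identical genes carry an assignment error of unknown size.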
